A study of Rattus norvegicus with 19 samples.

Results

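The 9 genes described here encode proteases that cut the extracellular matrix and the proteins that hold them in check. They are Adamts1, Plat, Plau, Mmp2, Mmp14 and Ctsb among the proteases and Timp1, Timp2 and Timp3 among the inhibitors. They were taken by gene symbol, all 9 had a probe, and each had 1 probe that passed the filter on dim signals, so that they make up 9 of the 11796 features tested. To pass it, a probe had to be detected (detection p-value under 0.05) on 6 or more of the 19 arrays.

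The arrays held 12 malignant peripheral nerve sheath tumours (MPNST) of the rat trigeminal nerve, 1 microtumour of the same nerve and 6 pools of normal trigeminal nerve. The tumour-bearing rats had received a subcutaneous injection of the DNA-alkylating agent N-ethyl-N-nitrosourea (ENU) on postnatal day 1, at a dose of 80 µg/g, and they were adult at sampling. Of the MPNST, 7 came from F1 hybrids of the BDIV and BDIX strains, 2 from BDIX, 2 from BDIV and 1 from BDIX.BDIV-Mss4a, a strain labelled with both parents; 6 were from males and 6 from females. The microtumour came from a BDIX.BDIV-Mss4a male. The nerve pools are labelled untreated and were taken as such, although their labels carry the same protocol text on ENU injection as those of the tumours. They came from rats 85 days old, 1 male and 1 female pool each of BDIX.BDIV-Mss4a (nerve 1 and 2), BDIX (nerve 3 and 4) and BDIV (nerve 5 and 6). F1 hybrids therefore had no nerve pool, each nerve array averages several animals while each tumour array holds 1 tumour, and the ages of tumour and nerve may differ.

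Matrix proteases act in linked steps. Plat and Plau encode tissue-type and urokinase-type plasminogen activator, which turn plasminogen into plasmin, and Mmp14 encodes a membrane-bound metalloproteinase that, together with its inhibitor TIMP2, activates the gelatinase made from Mmp2. The TIMP proteins block metalloproteinases, TIMP3 also blocks several ADAMTS and ADAM enzymes, and in peripheral nerve tissue-type plasminogen activator and the gelatinases are known from axon outgrowth and from the breakdown of myelin and matrix after injury.

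Levels are given on the log2 scale after background correction and quantile normalization, with an offset of 16, so that the level of an undetected probe lies near 7.2. A level is comparable between arrays for 1 probe, and not between probes. The arrays fell into separate ranges of raw background, which no label names: the 25th percentile of raw signal was high on 11 arrays (9 MPNST and nerve 1 and 2) and low on 8 (MPNST 9, 11 and 12, the microtumour and nerve 3 to 6). With tissue held constant, 26.3% of all features differed between these ranges. Tissue labels went with their markers: all 6 measured sensory neuron genes and all 4 measured myelin genes fell in MPNST, with a mean neuron gene level of 12.95 to 13.90 in the pools and 7.34 to 9.92 in the MPNST, while Sox10, a transcription factor of Schwann cells, was detected on all 19 arrays. Skeletal muscle genes stood at a mean level of 10.58 in MPNST 2 and 9.91 in MPNST 10 against at most 7.62 in the other MPNST, and central glia genes at 9.99 in nerve 2 and 9.37 in nerve 5 against at most 8.55 in the other pools.

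Between MPNST and nerve, 4 of the 9 genes rose (Adamts1, Plat, Mmp14 and Timp1), 2 fell (Timp2 and Ctsb), and Plau, Mmp2 and Timp3 did not pass the test. The test was limma's moderated test, called at a Benjamini-Hochberg adjusted p under 0.05 with all 11796 features in the adjustment. Across all features 45.4% passed it, 24.6% higher and 20.8% lower, and the 6 calls among 9 genes are to be read against these shares. The median difference over the 9 genes was 0.85 on the log2 scale, against 0.02 over all features, and the median size of a difference was 0.85 against 0.19. Since the 9 genes were chosen with earlier results of these data known, these medians are descriptions only. With median scaling in place of quantiles, 31.2% of all calls were higher in place of 54.2%, while the calls of the 9 genes were 4 higher and 2 lower under either scaling.

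**Figure D1:**
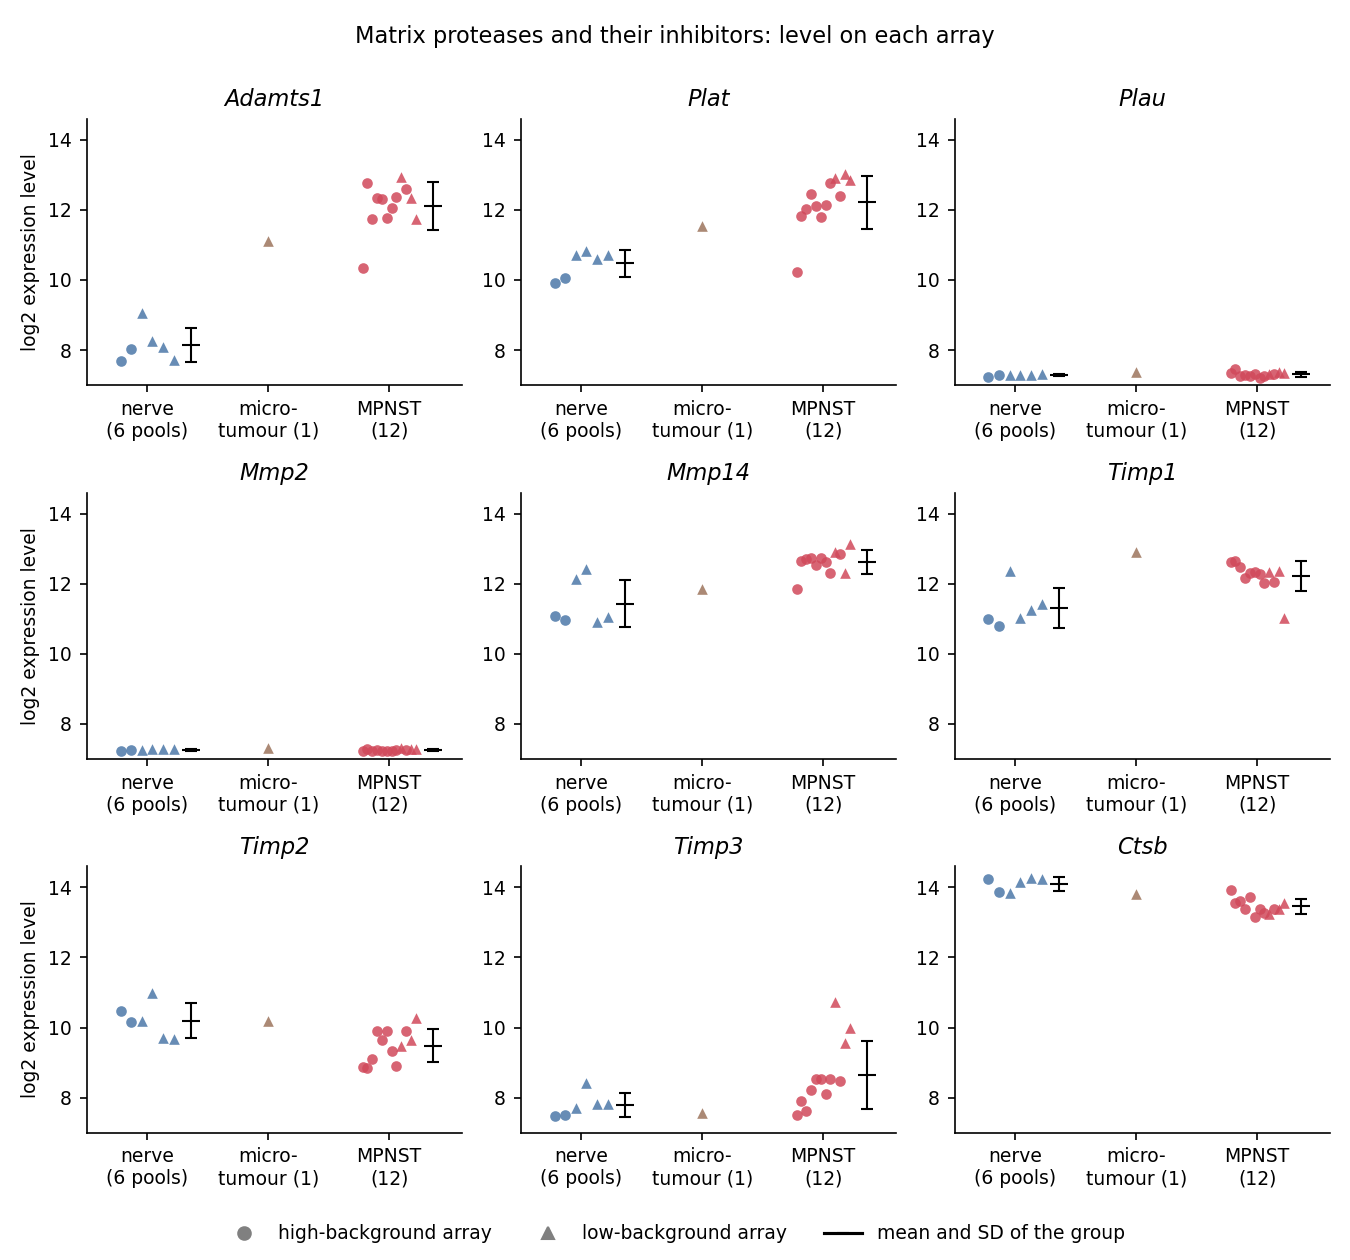
Log2 expression level (vertical axis) of each of the 9 genes on every array, by tissue (horizontal axis); circles are high-background and triangles low-background arrays, and the bar beside each group is its mean and SD. Adamts1 is higher in all 12 MPNST than in any pool, Plau and Mmp2 lie near 7.3 in every tissue, and the 3 MPNST on low-background arrays hold the 3 highest Timp3 levels. Heights are not comparable between panels, since each gene has its own probe.

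Adamts1 encodes a secreted metalloproteinase that cuts the proteoglycans versican and aggrecan, and it is on rat chromosome 11. In the pools nerve 1 to 6 its level was 7.69, 8.05, 9.05, 8.25, 8.10 and 7.73. In the MPNST it ran from 10.35 through a median of 12.32 to 12.94, and in the microtumour it was 11.11. The lowest tumour, MPNST 1, lay above the highest pool, nerve 3. The microtumour lay within the range of the MPNST through MPNST 1 alone, being below every other MPNST. Adamts1 rose 15.6-fold in MPNST, or by 3.97 ± 0.30 as a log2 difference with its SE (limma adjusted p = 2.03e-08), which ranked 9 among the increases of all features. Such complete separation of the tissues held for 17% of all features. The difference was 4.13 in BDIV, 3.39 in BDIX and 3.89 in BDIX.BDIV-Mss4a, and 4.17 and 4.06 within the high and the low background range. In this and every later result, more cells that express a gene and more RNA per cell cannot be told apart.

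Before filtering and normalization the rise was visible in the raw signal. The raw Adamts1 signal was 188 to 833 intensity units in the 6 pools, 4044 in the microtumour and 1058 to 10628 in the MPNST. The 250 bases before the start of Adamts1 are shown because it changed most of the 9 genes. They are from RefSeq's GRCr8 annotation, chr11:38427385-38427634 on the minus strand, with capitals on motif matches.
Adamts1: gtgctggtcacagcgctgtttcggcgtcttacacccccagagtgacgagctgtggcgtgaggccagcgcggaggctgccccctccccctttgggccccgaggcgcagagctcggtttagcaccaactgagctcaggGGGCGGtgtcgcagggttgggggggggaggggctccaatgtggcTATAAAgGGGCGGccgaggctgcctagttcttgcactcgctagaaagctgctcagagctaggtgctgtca
The motifs searched, on both strands, were the AP-1 site TGANTCA, the ETS core AGGAAG, the GC box GGGCGG and the TATA box TATAAA. The Adamts1 window held the GC box 2 times, 114 and 63 bases before the start, and the TATA box 1 time, 70 bases before it, and no match to the other motifs. Of 33469 promoter windows of the same length, 30.5% held a GC box, 12.9% a TATA box, 29.5% an ETS core and 6.34% an AP-1 site. Windows were present for 5 of the 9 genes (Adamts1, Plau, Timp1, Timp2 and Timp3), and each of the 5 held at least 1 GC box. These matches describe the letters only.

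Of the plasminogen activators, Plat rose and Plau did not pass the test. The level of Plat in nerve 1 to 6 was 9.92, 10.05, 10.71, 10.83, 10.60 and 10.71, and in the microtumour 11.55. The MPNST ran from 10.24 through a median of 12.28 to 13.01. Of the 12 MPNST, 11 lay above every pool and MPNST 1 lay within the pools' range. Plat (chromosome 16) rose 3.35-fold, by 1.74 ± 0.32 (adjusted p = 0.000269). It was also higher on low-background arrays with tissue held constant, by 0.87 ± 0.27 (adjusted p = 0.0269), and its rise was 1.99 within the high range and 2.21 within the low range.

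Plau (chromosome 15), the other activator, stayed near the background. It was detected in 8 of 12 MPNST, in the microtumour and in 5 of 6 pools, with levels of 7.20 to 7.46, 7.39 and 7.24 to 7.33. The groups overlapped, and the difference was 0.03 ± 0.03 (95% confidence interval -0.04 to 0.09; adjusted p = 0.512). Raw Plau signals of 72.3 to 136 in MPNST and 79.0 to 132 in nerve lie where the offset draws values together, so this interval bounds the compressed scale and not the RNA itself.

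Mmp2 (chromosome 19), which encodes the gelatinase that digests type IV collagen, was at the edge of detection. It was detected in 2 of 12 MPNST, in the microtumour and in 3 of 6 pools, and all 6 of these arrays were of the low background range. Its level was 7.22 to 7.30 in MPNST, 7.30 in the microtumour and 7.22 to 7.29 in nerve, a difference of -0.01 ± 0.02 between MPNST and nerve (95% confidence interval -0.05 to 0.03; adjusted p = 0.664). As for Plau, this interval bounds the compressed scale and not the RNA itself. Between the low and the high range, with tissue held constant, Mmp2 differed by 0.04 ± 0.01 (adjusted p = 0.0289).

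Mmp14 (chromosome 15), the membrane-bound metalloproteinase, rose 2.27-fold, by 1.18 ± 0.23 (adjusted p = 0.000423). Nerve 1 to 6 stood at 11.09, 10.97, 12.15, 12.43, 10.90 and 11.05, the microtumour at 11.86, and the MPNST between 11.85 and 13.14 with a median of 12.67. The pools fell apart by strain: both BDIX pools were above the other 4, and 9 of 12 MPNST lay above all pools. The rise was 0.44 between the 2 tumours and 2 pools of BDIX, 1.75 in BDIV and 1.70 between the single tumour and the pools of BDIX.BDIV-Mss4a. Without the BDIX pools nerve 3 and 4, an alternative chosen after seeing the data, it was 1.61 ± 0.17. Within the low-background arrays alone, 3 MPNST and 4 pools, it was 1.16 and did not pass the test (adjusted p = 0.131).

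Ctsb (chromosome 15) encodes cathepsin B, a lysosomal cysteine protease that can also be secreted and cut matrix. Its level in nerve 1 to 6 was 14.23, 13.87, 13.84, 14.15, 14.27 and 14.24. The MPNST ran from 13.15 through a median of 13.39 to 13.91, and the microtumour stood at 13.81. All but 1 of the MPNST lay below every pool, the exception being MPNST 1 at 13.91. Ctsb fell 1.56-fold, a difference of -0.64 ± 0.10 (adjusted p = 7.16e-05), with within-range differences of -0.56 (high) and -0.74 (low). Macrophages are rich in this enzyme. In the same comparison 6 of 11 measured macrophage genes rose and none fell, against 24.6% of all features called higher and 20.8% lower. Of the 5 that did not pass, Laptm5 differed most, by -0.86 (limma adjusted p = 0.0719). The mean level of the macrophage genes was 8.04 to 8.63 in the pools and 8.70 to 9.79 in the MPNST. The part of macrophages in the level of Ctsb was not tested. Among the 12 MPNST the mean macrophage level and Ctsb had an r of 0.61, which was 0.19 without the 2 tumours farthest from the median. The mean level of central glia genes had a higher r with Ctsb, 0.66 (0.46 without 2 tumours). Within the high background range the order was reversed, with 0.85 for macrophage and 0.64 for central glia genes. Of the central glia list, Gfap ran from 8.21 to 13.17 in the MPNST. Mobp, Ermn, Mog and Aqp4 lay near the background there, each at most 7.52.

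**Figure D2:**
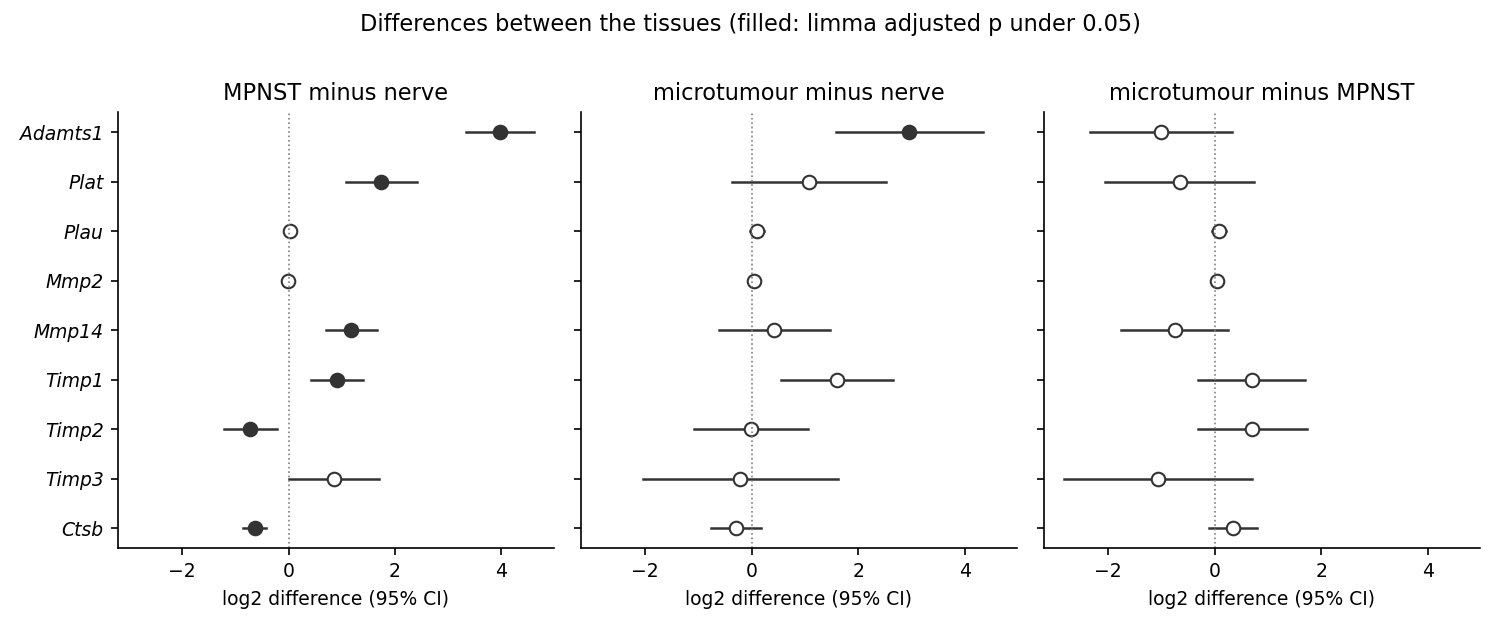
Log2 difference (horizontal axis) with its 95% confidence interval for each of the 9 genes (vertical axis) between MPNST and nerve, between the microtumour and nerve, and between the microtumour and MPNST. Filled points passed limma's test; 6 genes did so in the first panel, Adamts1 alone in the second and none in the third, where intervals are wide because there was 1 microtumour.

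The inhibitors went different ways. Timp1 (chromosome X) rose 1.88-fold, by 0.91 ± 0.23 (adjusted p = 0.00357), Timp2 (chromosome 10) fell 1.64-fold, a difference of -0.71 ± 0.23 (adjusted p = 0.0187), and Timp3 (chromosome 7) differed by 0.85 ± 0.40 (adjusted p = 0.0939). The promoter windows of Timp1 and Timp2 are shown since these inhibitors changed in opposite directions. Both are 250 bases before the start on the minus strand in GRCr8 (RefSeq), chrX:3771123-3771372 and chr10:104089215-104089464, with the same 4 motifs in capitals.
Timp1: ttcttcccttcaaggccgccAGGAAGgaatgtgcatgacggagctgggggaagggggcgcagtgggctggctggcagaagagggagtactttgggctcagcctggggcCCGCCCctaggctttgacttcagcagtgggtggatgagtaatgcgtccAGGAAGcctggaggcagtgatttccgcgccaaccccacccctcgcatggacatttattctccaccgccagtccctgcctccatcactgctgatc
Timp2: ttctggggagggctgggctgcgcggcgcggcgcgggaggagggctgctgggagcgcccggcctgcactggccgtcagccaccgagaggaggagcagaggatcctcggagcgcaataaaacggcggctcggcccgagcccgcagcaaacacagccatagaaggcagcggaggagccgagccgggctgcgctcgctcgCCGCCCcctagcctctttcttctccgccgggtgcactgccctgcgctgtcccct
The Timp1 window held the ETS core 2 times, 230 and 94 bases before the start, and the GC box 1 time, 142 bases before it. The Timp2 window held the GC box 1 time, 54 bases before the start, and no ETS core. The GC content was 61.2% for Timp1 and 72% for Timp2.

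Timp1 encodes a secreted inhibitor that is known to increase in injured nerve. Its level was 10.98, 10.80, 12.36, 11.01, 11.25 and 11.43 in nerve 1 to 6, and 12.91 in the microtumour, above every other array. In the MPNST it ran from 11.02 in MPNST 12 through a median of 12.32 to 12.65. The groups overlapped through the high pool nerve 3 and the low tumour MPNST 12, and 3 of 12 MPNST lay above all pools. The rise was 1.43 within the high background range (9 MPNST and 2 pools) and 0.39 within the low range (3 MPNST and 4 pools; adjusted p = 0.594); the difference between the ranges was not tested. It did not pass with sex and strain as covariates (0.69, adjusted p = 0.0775) or without the F1 hybrids (0.76, adjusted p = 0.112).

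Timp2 encodes the inhibitor that also takes part in activating the Mmp2 product. Nerve 1 to 6 stood at 10.48, 10.15, 10.18, 10.999, 9.72 and 9.67, the microtumour at 10.19, and the MPNST between 8.83 and 10.27 with a median of 9.56. Of the MPNST, 8 lay below all pools, and the BDIV pools were the lowest of the 6, whereas with median scaling the BDIX pool nerve 3 was the lowest (9.96). By strain, MPNST minus nerve was -1.09 in BDIX, -0.41 in BDIX.BDIV-Mss4a (1 tumour) and 0.27 in BDIV. The call was lost without nerve 4 (-0.55, adjusted p = 0.0598) and without both BDIX pools (-0.52, adjusted p = 0.119), with background range as a block (-0.63, adjusted p = 0.0551) and with sex and strain as covariates (-0.37, adjusted p = 0.352). It did not pass within the high background range (-0.93, adjusted p = 0.0549), within the low range (-0.34, adjusted p = 0.558) or without the F1 hybrids (-0.43, adjusted p = 0.262).

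Timp3 encodes an inhibitor that stays bound to the matrix. In nerve 1 to 6 its level was 7.49, 7.52, 7.70, 8.41, 7.81 and 7.81, and in the microtumour 7.58. In the MPNST it ran from 7.51 through a median of 8.50 to 10.74, the widest spread of the 9 genes (SD 0.98). MPNST 9, 11 and 12, the tumours on low-background arrays, held 10.74, 9.56 and 9.99, whereas the 9 MPNST on high-background arrays ran from 7.51 to 8.55 without overlap. With tissue held constant Timp3 was higher on low-background arrays by 1.38 ± 0.27 (adjusted p = 0.00169). With the range as a block the MPNST minus nerve difference was 1.43 and passed the test (adjusted p = 0.000631), within the low range it was 2.16 (adjusted p = 0.0107) and within the high range 0.65. Without the 3 tumours on low-background arrays, an alternative chosen after seeing the data, it was 0.37 (adjusted p = 0.125). BDIV tumours were measured only in the low range, and the background range and the tumours themselves cannot be told apart here.

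**Figure D3:**
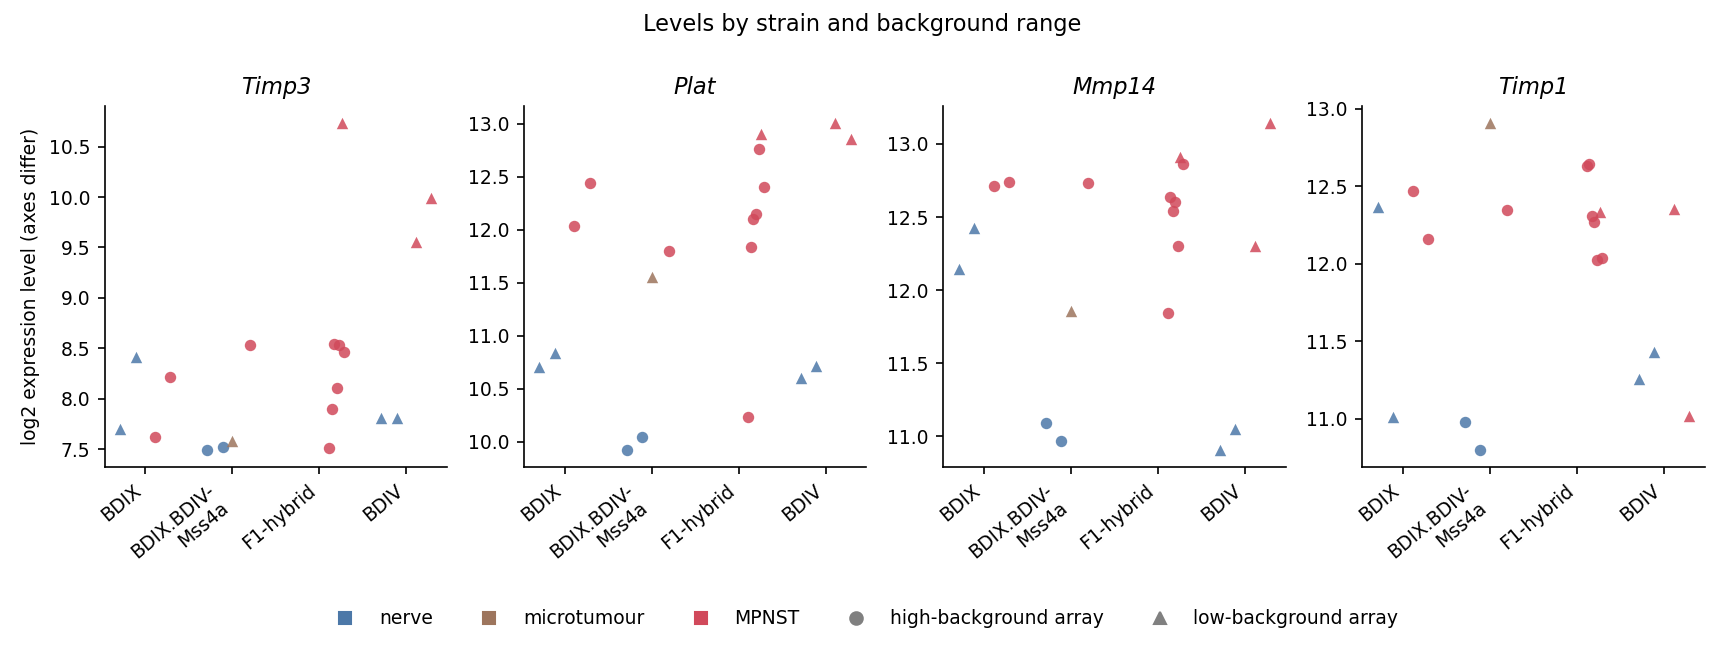
Log2 expression level (vertical axes, which differ between panels) of Timp3, Plat, Mmp14 and Timp1 by strain (horizontal axis), with colours for the tissues, circles for high-background and triangles for low-background arrays. Both BDIX pools have the 2 highest nerve levels of Mmp14 (12.15 and 12.43), and the 3 triangles among the MPNST have the highest Timp3 (9.56 to 10.74) and Plat (12.86 to 13.01) levels.

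The microtumour was compared with the nerve pools and with the MPNST in the same fit, where the single array is assumed to vary as the other groups do. Of the 9 genes, Adamts1 alone differed from nerve, 7.80-fold or 2.96 ± 0.66 higher (adjusted p = 0.0204), against 3.04% of all features called in either direction. Timp1 was 1.60 ± 0.50 above nerve and missed the threshold (adjusted p = 0.0955), although it passed without nerve 3 (1.82, adjusted p = 0.0202) or without MPNST 12 (adjusted p = 0.0297). Plat differed by 1.08 ± 0.69 and Mmp14 by 0.43 ± 0.49, neither passing the test. Within the low-background arrays alone, Adamts1 was 2.83 above nerve without passing (adjusted p = 0.112), and Plat differed by 0.84 from nerve and by -1.37 from the MPNST and passed both times (adjusted p = 0.0193 and 0.00338).

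Against the MPNST no gene of the 9 passed the test in the microtumour, where 2.72% of all features did. The differences ran from -1.07 ± 0.84 for Timp3 and -1.004 ± 0.63 for Adamts1 to 0.70 ± 0.49 for Timp2, and the 95% confidence interval of Adamts1 reached from -2.34 to 0.33. The lowest unadjusted p was 0.12, for Ctsb. In the microtumour array the mean level of sensory neuron genes was 12.32 and that of myelin genes 10.84, both above every MPNST (at most 9.92 and 10.27), and their part in the levels between nerve and MPNST was not tested.

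Sex was compared within the 12 MPNST with strain in the model. None of the 9 genes passed, and 0% of all features did. Mmp14 was 0.57 ± 0.18 higher in males (unadjusted limma p = 0.0153, adjusted p = 0.59), and for Ctsb the male minus female difference was -0.28 ± 0.13 (unadjusted p = 0.054). These were the 2 lowest unadjusted p-values of the 9 genes, and Mmp14 alone was under 0.05 before adjustment.

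Normal nerve of BDIV and BDIX was compared with sex in the model in a fit of the 6 pools; each of these strains had 2, all on low-background arrays. Mmp14 was lower in BDIV, with 10.90 and 11.05 against 12.15 and 12.43, a difference of -1.31 ± 0.12 or 2.48-fold (adjusted p = 0.0267), and 13.4% of all features passed. No other gene of the 9 did. The 2 BDIX.BDIV-Mss4a pools, on high-background arrays, were near the BDIV pools at 11.09 and 10.97. Over all features the 2 BDIV pools were the most alike of the nerve pairs, with a Pearson r of 0.997 against 0.928 to 0.992. With 2 pools a side the call was fragile: of 6 fits that each left out 1 nerve pool it held without nerve 3 (adjusted p = 0.0327) and was lost in the other 5 (adjusted p 0.0557 to 0.21), with differences from -1.45 to -1.18. Its size depended on the scaling: with median scaling in place of quantiles the difference was -0.66 ± 0.03 (adjusted p = 0.0106), and with the authors' values it was -1.12 and did not pass (adjusted p = 0.0565). Timp2 differed by -0.90 ± 0.34 without passing (adjusted p = 0.204). Without nerve 3 the Timp2 difference was -1.40 and passed (adjusted p = 0.0347), without nerve 4 it was -0.39, and with median scaling -0.28.

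The change from nerve to MPNST was then compared between BDIV and BDIX, with 2 tumours and 2 pools of each. Timp3 passed narrowly: its change was larger in BDIV by 2.10 ± 0.46 (adjusted p = 0.0499), being 1.96 in BDIV and -0.14 in BDIX, and 12.4% of all features passed. Mmp14 differed by 1.31 ± 0.41 (adjusted p = 0.108), Plat by 0.81 ± 0.21 (adjusted p = 0.076) and Timp2 by 1.35 ± 0.58 (adjusted p = 0.207). Both BDIX tumours were on high-background arrays while both BDIV tumours and all 4 pools were on low-background arrays, so strain and background range cannot be told apart in this comparison. Leaving out 1 array at a time, the Timp3 call held in 1 of 8 fits, that without nerve 3 (adjusted p = 0.0359), and the size ran from 1.74 to 2.46.

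Within the tumours the levels of the 9 genes were set against each other over the 9 MPNST on high-background arrays. The points share their array and its normalization, and the correlations are descriptions of 36 pairs. Mmp2 was not detected on any of these 9 arrays, so its pairs describe undetected signal. Plat and Timp1 ran in opposite directions, with a Pearson r of -0.77, a Spearman rho of -0.90, and an r of -0.83 without the 2 tumours farthest from the median of Plat. Adamts1 and Plat had an r of 0.86, which was 0.25 without the 2 tumours farthest from the median of Adamts1, one of them MPNST 1, the lowest for both genes. Mmp14 and Timp2, the partners in activating the Mmp2 product, had an r of 0.64, a rho of 0.68 and an r of 0.45 without 2 tumours. Timp1 and Timp3 had an r of -0.76, a rho of -0.55 and an r of -0.59 without 2 tumours.

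**Figure D4:**
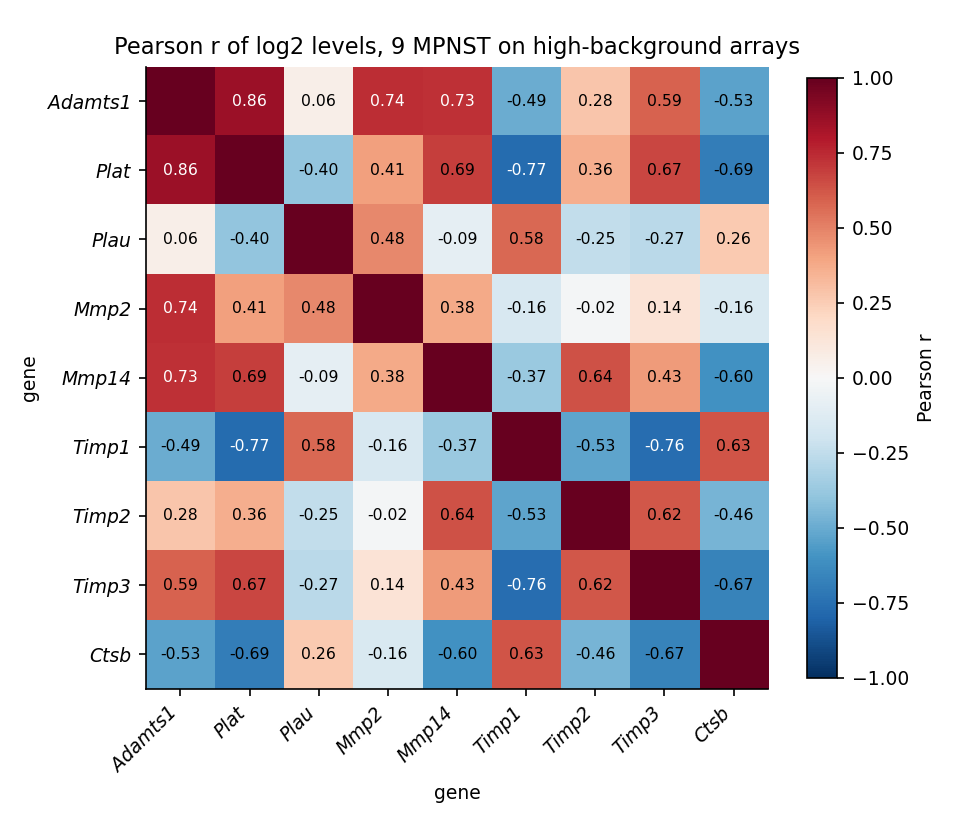
Pearson r between the log2 levels of each pair of the 9 genes (both axes) over the 9 MPNST on high-background arrays; red is positive and blue negative. Adamts1 and Plat have the highest value (0.86), and Plat and Timp1 the lowest (-0.77). Mmp2 was not detected on any of these 9 arrays, so its values describe undetected signal.

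The genes whose levels over all 12 MPNST were most like those of each gene were named by Pearson r, 3 for each. For Adamts1 they were Pofut2, Tmem39a and Rcn2 (r 0.87, 0.86 and 0.85). For Plat they were Uqcc4, Ikbip and Ube2g1 (each 0.90), for Mmp14 Papola, Rac1 and Atf2 (0.89, 0.87 and 0.87), and for Ctsb Prr15, Sema4g and Pgap6 (0.88, 0.87 and 0.87). These 12 genes had an r of 0.77 to 0.92 within the 9 tumours on high-background arrays. Those tumours are among the 12 MPNST used to pick the genes, so this is no separate check. Without the 2 tumours farthest from the median, r ran from 0.61 (Papola) to 0.81 (Uqcc4).

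For Timp1 the nearest genes were Cmc1, Rpusd4 and Uqcrc1 (0.95, 0.91 and 0.89), and the last 2 fell to 0.40 and 0.28 without the 2 tumours farthest from the median. For Timp2 they were Hsd17b4, Cog6 and Tnks2 (0.90, 0.90 and 0.89). For Timp3 they were Creld2, Ccnt2 and Sec13 (0.94, 0.94 and 0.93), whose r within the high background range was 0.54, 0.77 and 0.35. For the dim genes they were M6pr, Gsap and Ccn6 for Plau (0.87, 0.87 and 0.85) and Wee1, Rps23 and Cfap141 for Mmp2 (0.92, 0.90 and 0.89). Plau was detected in 8 of the 12 MPNST and Mmp2 in 2, with Mmp2 levels of 7.22 to 7.30. The r values of Mmp2 therefore rest mostly on undetected signal.

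The mean levels of marker lists were set against each of the 9 genes across the tumours. For macrophage genes r over the 12 MPNST ran from -0.81 with Mmp14 to 0.61 with Ctsb. With Ctsb it was 0.85 within the 9 MPNST on high-background arrays and 0.19 without the 2 tumours farthest from the median. With Mmp14 it was -0.72 within the high range and -0.39 without 2 tumours. The mean of 18 matrix substrate genes had an r of 0.83 with Adamts1 (0.73 without 2 tumours, 0.89 within the high range). With the other 8 genes r was -0.34 to 0.40 over the 12 MPNST. Within the high range it ran from -0.31 with Ctsb to 0.71 with Plat, so a high value there was not particular to Adamts1. Without 2 tumours the r with Plat was -0.14. MPNST 1, the lowest tumour for Adamts1, Plat, Mmp14 and Timp3, had the highest mean level of macrophage genes (9.79, against 8.70 to 9.40 in the other 11) and of endothelial genes (9.15, against 8.09 to 8.63). The part of these cells in the levels was not tested.

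Other genes of the same systems were read from lists of which some members were not on the array or were too dim. Each count is to be read against the 45.4% of all features that passed between MPNST and nerve, 24.6% higher and 20.8% lower. Of 9 measured further matrix metalloproteinases of 18 listed, 4 rose between nerve and MPNST and none fell: Mmp11 by 1.53 ± 0.45 (adjusted p = 0.00964), the membrane-bound Mmp16 by 1.48 ± 0.25 (adjusted p = 0.000155), Mmp17 by 0.87 ± 0.14 (adjusted p = 0.000101), and Mmp19 by 0.10. Their levels in nerve lay near the background, at 7.25 to 7.34, and Mmp17 was detected in 1 of 6 pools and all 12 MPNST. Mmp9, the other gelatinase, differed by 0.15 without passing. The 4 calls among 9 genes are close to the 45.4% over all features, and the median over these 9 was 0.15.

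Of 9 measured ADAMTS and ADAM genes, 3 rose and 1 fell. Adam17, which encodes the enzyme that sheds tumour necrosis factor and ligands of the epidermal growth factor receptor, rose by 2.30 ± 0.28 or 4.94-fold (adjusted p = 4.06e-06). Adamts7 rose by 1.15 ± 0.30 and Adamts9, which also cuts versican, by 1.06 ± 0.23, and Adam15 fell by 0.18. These 4 calls among 9 are again close to the 45.4% over all features, and the median was 0.10. Adamts4 and Adamts5, the aggrecanases, differed by 0.05 and 0.26 without passing.

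In the plasminogen system 6 genes were measured beside Plat and Plau, of which 3 rose and 1 fell. Serpine2, which encodes an inhibitor of thrombin and of plasminogen activators, rose by 1.42 ± 0.25 (adjusted p = 0.000215), from 10.66 to 12.36 in the pools to 12.15 to 13.57 in the MPNST. Plgrkt, a plasminogen receptor gene, rose by 1.01 ± 0.16 (adjusted p = 9.2e-05) and Tfpi2, near the background, by 0.08. Anxa2, which encodes a surface protein that binds plasminogen and its tissue-type activator, went the other way with a difference of -1.57 ± 0.28 (adjusted p = 0.000216). Plg, the plasminogen gene itself, was detected in 2 of 12 MPNST and 4 of 6 pools and differed by -0.04 without passing.

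Of 9 other measured cathepsins and lysosomal proteases, 3 rose and none fell, unlike Ctsb: Ctss by 1.36 ± 0.25 (adjusted p = 0.000242), Ctsc by 1.11 ± 0.18 and Ctsl by 0.63 ± 0.14, with a median of 0.49 over the 9. Ctsd and Lgmn differed by -0.42 and -0.64 without passing. Of 3 measured cystatins, inhibitors of these enzymes, Cst6 fell by 0.39 and the abundant Cst3 and Cstb differed by -0.15 and -0.14 without passing. The further metalloproteinase inhibitors Reck and A2m differed by 0.25 and -0.27 without passing.

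**Figure D5:**
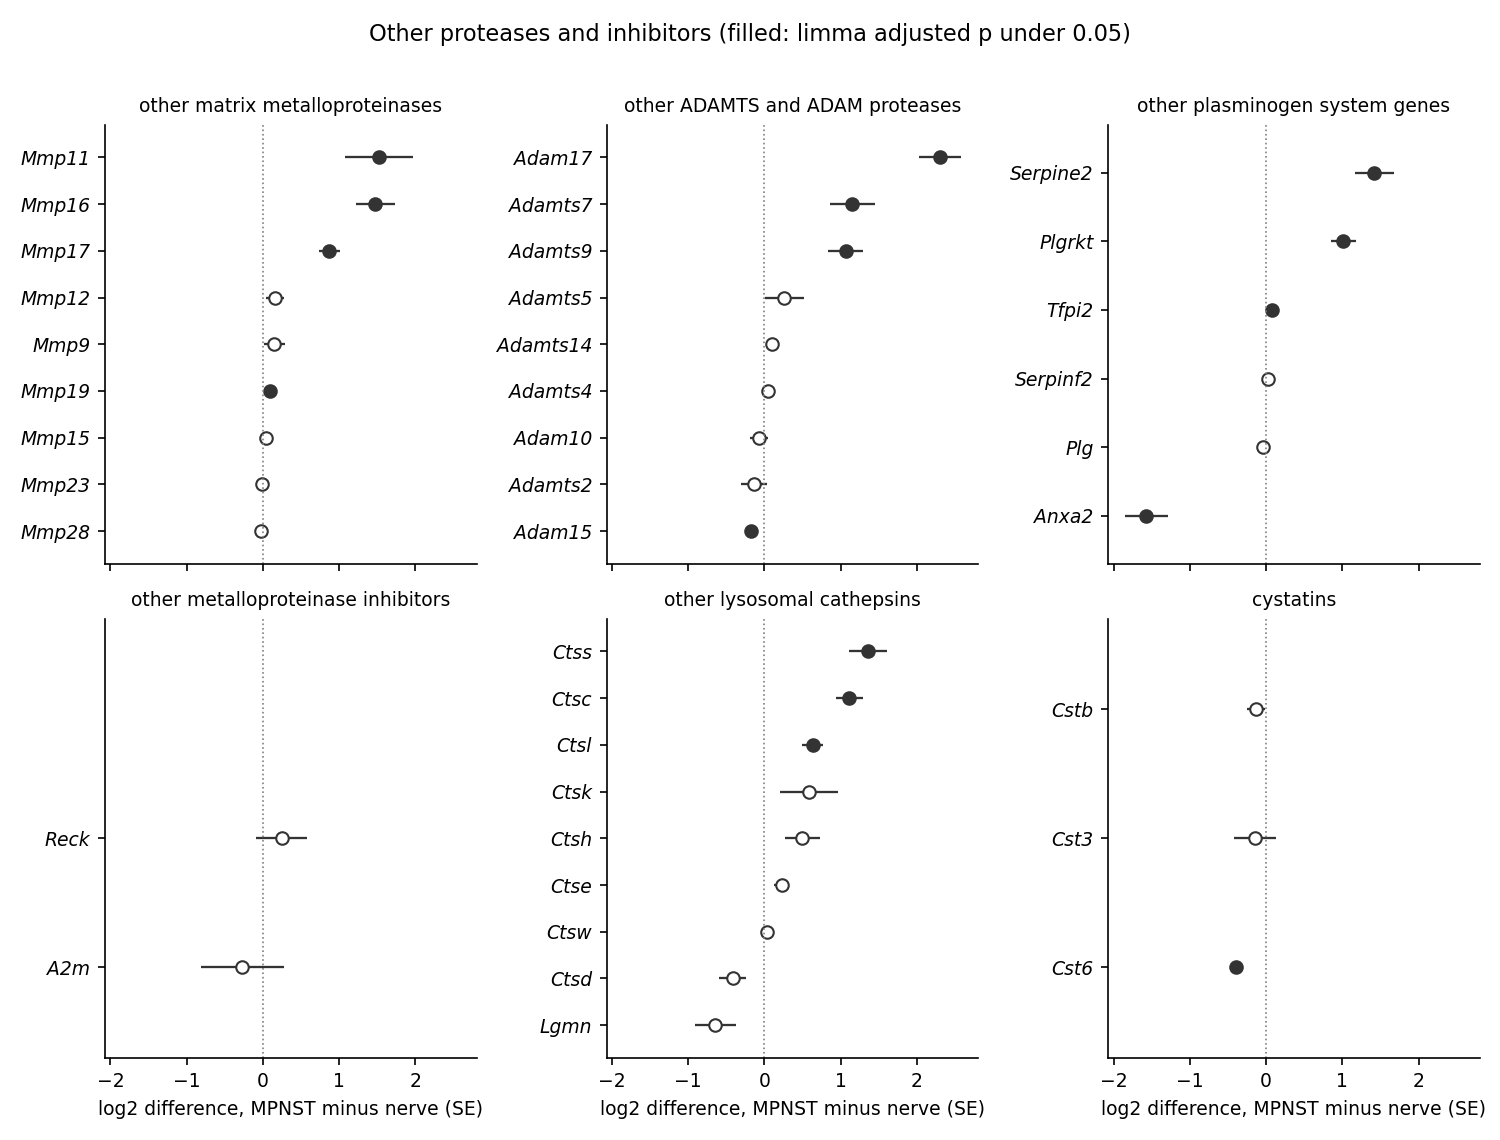
Log2 difference between MPNST and nerve (horizontal axis) with its SE for the measured genes (vertical axes) of 6 further lists; filled points passed limma's test. Adam17 has the largest rise (2.30) and Anxa2 the largest fall (-1.57).

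Of 18 measured genes for matrix proteins on which these enzymes act, 8 rose, 2 fell and 8 did not pass the test, against 45.4% of all features called. Vcan, the gene of versican, a substrate of the Adamts1 product, rose by 4.84 ± 0.25 in MPNST and by 3.89 in the microtumour (adjusted p = 0.000685). The fibrillar collagen genes Col5a1 and Col5a2 rose by 2.47 ± 0.38 and 2.08 ± 0.35. Dcn and Lum, small proteoglycan genes that fibroblasts express, went lower, with differences of -1.53 ± 0.29 and -0.64 ± 0.25. Bgn, another small proteoglycan gene of the list, rose by 0.78 ± 0.17. Of 8 fibroblast genes, 4 fell (median -0.76), Mfap5 most with -2.89 ± 0.17. Dpt of the same list rose by 0.73 ± 0.29 (limma adjusted p = 0.0499), and 3 did not pass the test. Of 6 measured AP-1 and ETS genes of 12 listed, whose proteins are known to act on metalloproteinase promoters, 4 rose and none fell: Ets1 by 1.61 ± 0.26, Fos by 0.86 ± 0.22, Junb by 0.74 ± 0.28, and Etv4 by 0.71 ± 0.23. The counts of the fibroblast and of the AP-1 and ETS genes are to be read against all features, 24.6% called higher and 20.8% lower.

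Counts for the other cell markers, between MPNST and nerve, were as follows. They are to be read against all features, 24.6% called higher and 20.8% lower. Of 4 Schwann cell genes 2 rose (Erbb3 by 1.36 and Sox10 by 1.11) and S100b fell by 2.43 on the log2 scale. Of 6 endothelial genes Plvap rose by 1.18, while Cldn5, Vwf and Tek fell. Of 3 pericyte genes Cspg4 and Tagln rose, all 3 perineurial genes fell (Itgb4 fell by 2.06), and 4 of 5 central glia genes fell. Both red blood cell genes, S100a8 among 2 granulocyte genes and Lpl among 2 adipocyte genes fell, and none of 3 T cell or 3 skeletal muscle genes passed the test.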

How the data were processed

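Gene expression was measured on 19 Illumina arrays hybridized with biotin-labelled cRNA of total RNA. The authors read them with BeadStudio 3.0, per the submitters' processing notes. Per the file headers, the deposited raw table pairs a probe's mean bead intensity, not normalized, with its detection p-value; genome build and annotation are not given in the sources used here. The authors also deposited background-subtracted intensity values, of which 17 of 19 columns matched their own raw column and nerve 5 and nerve 6 matched each other's. Raw intensities were converted to background-corrected, quantile-normalized log2 levels by neqc (offset 16) in limma 3.58.1 under R 4.3.3. Probes detected at p under 0.05 on at least 6 arrays were kept, 11816 of 21791, and the brightest probe per symbol gave 11796 features. Moderated tests (lmFit, eBayes) were adjusted over all features by Benjamini-Hochberg. The fits were run on simulated data with known changes and independent noise. Those data held no background ranges, so the run says nothing about them. MPNST, microtumour and nerve shared a fit; the sex comparison used the MPNST, the nerve strain comparison the 6 pools, and the strain difference in change the BDIV and BDIX arrays. Gene names came from the platform annotation: 13387 probes carried 1 symbol and 8404 none. Of each further list, up to 3 rising and 3 falling genes with the largest change were named, other genes being named after their values were seen. The 9 genes and all lists were chosen with earlier results of these data known. P-values measure the spread between arrays, and the number of arrays limits precision.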

Additional observations from a re-analysis of the deposited data

Results flagged for a closer look

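The level of Timp3 in nerve 4 was 8.41, far above the next pool at 7.81 in relation to the spread of the 6 pools (a gap of 0.65 of the whole range). Of 9 genes looked at in the pools it was the only value to stand apart in this way, and chance marks about 1 group in 20. Nerve 4 is a BDIX pool on a low-background array. The value was marked on quantile-normalized levels, and the size of the gap depends on the scaling. With median scaling in place of quantiles nerve 4 was still the highest pool, at 8.34. Nerve 5 then stood at 7.996, nerve 6 at 7.98 and the lowest pool, nerve 1, at 7.41, so the gap was a smaller part of the range.

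The change of Timp3 from nerve to MPNST differed between BDIV and BDIX by 2.10 on the log2 scale (limma adjusted p = 0.0499). The BDIX tumours were on high-background arrays and the other 6 arrays on low-background arrays, so strain and background range cannot be told apart.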

How the results depend on the processing

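No difference of the 9 genes that passed under the main settings changed sign under any alternative run. Between MPNST and nerve 4 to 6 genes passed under every alternative, 5 to 6 when 1 array was left out, and Adamts1, Plat and Ctsb passed each time. Low-background arrays alone gave 2224 features called in place of 5359. With the replicate number as a block, 5 genes passed, Timp2 being lost (-0.82, adjusted p = 0.0625) and no other call changed; same-numbered arrays did not deviate together (correlations -0.30 to 0.21), so the numbers do not pair them. Against nerve the microtumour had 2 genes called, not 1, with median scaling, without MPNST 9, 11 and 12 and without nerve 3 and 4 (the last 2 chosen after seeing the data), and 1 to 2 leaving out 1 array. Against the MPNST it had 1 with low-background arrays alone. The features called were 146 to 635 in place of 359 and 186 to 740 in place of 321, and median scaling moved the share of higher calls from 60.2% to 86.8% and from 63.2% to 97.0% (76.1% and 80.3% with the authors' values, which shifted the median of all features by 0.12 and 0.24). BDIV against BDIX nerve had 0 genes with the authors' values (10 features in place of 1581), 2 without the filter and 0 to 3 leaving out 1 pool (0 to 2331 features). The strain difference in change had 0 genes with median scaling, without the filter and with every probe a feature, and 0 to 1 leaving out 1 array (385 to 1810 features in place of 1459). Sex had 0 to 3 features. The cause of these changes was not tested. High-background arrays alone held no microtumour, and slide was not run as a block because the files used here give none. Dim signal limits Plau and Mmp2.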
